A study of Mus musculus with 4 samples.

Results

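CXC chemokines are small secreted proteins that direct leukocyte movement, and 9 of their genes are described here in mouse bone marrow-derived macrophages: Cxcl1, Cxcl2, Cxcl3, Cxcl5, Cxcl9, Cxcl10, Cxcl11, Cxcl14 and Cxcl16. They were taken by gene symbol, matched to NCBI gene identifiers, and are 9 of 15935 genes listed in at least 1 library. RNA was sequenced from wild-type cells (WT) and from cells of mice with floxed Ezh2 alleles and lysozyme M-driven Cre (ezh2f/f lysmcre, KO, genotype label EZH2-/-), all C57BL/6. This Cre acts in myeloid cells. Marrow cells from femurs and tibias of adult mice were grown for 5 days with M-CSF-conditioned DMEM, which drives them to become macrophages. The cells were then left untreated (NT) or given lipopolysaccharide (LPS), the bacterial ligand of Toll-like receptor 4, for 2 h. Each of the 4 groups is 1 library, so genotype, culture and library cannot be told apart and no p-value is given. The labels do not say how many mice were pooled.

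The Cxcl1, Cxcl2, Cxcl3 and Cxcl5 proteins carry a glutamate-leucine-arginine motif before the CXC cysteines, signal through CXCR2 and recruit neutrophils. They are called ELR chemokines below. Cxcl9, Cxcl10 and Cxcl11 lack the motif, signal through CXCR3 on T cells and natural killer cells, and are induced by interferons, with Cxcl10 also driven by NF-kB. Cxcl16 is a membrane-anchored ligand of CXCR6 and a scavenger receptor, and Cxcl14 is a chemokine best known from epithelial and stromal tissues. Ezh2 is the histone H3 methyltransferase of the Polycomb machinery, known for gene silencing.

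Total expected counts ran from 5237782 to 5678451 per library. Ezh2 was low in all 4 libraries, at 2.84 FPKM in untreated and 2.52 in LPS-treated WT cells, and 2.06 and 1.29 in KO cells. FPKM, fragments scaled by gene length and library size, is the authors' level of a gene. The KO over WT ratio of Ezh2 was 0.725 without LPS, with an exact 95% counting interval of 0.442 to 1.18, and 0.512 with LPS (0.275 to 0.919). The labels do not say which exons are floxed, and a gene-level count takes in exons outside a deletion. Macrophage markers were high in every library, with Cd68 between 1078 and 1391 FPKM and Adgre1, which encodes F4/80, between 370.0 and 557, while Lyz2, whose locus drives the Cre, was only at 11.6 to 22.4. Intervals throughout come from counts (Clopper-Pearson for 2 counts, Poisson for 1) and cover counting error only. Variation between mice and cultures is outside them, since each group is 1 library. Whether PCR copies of a molecule were removed is not given in the sources used here. Copies left in would make the intervals too narrow.

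**Figure D1:**
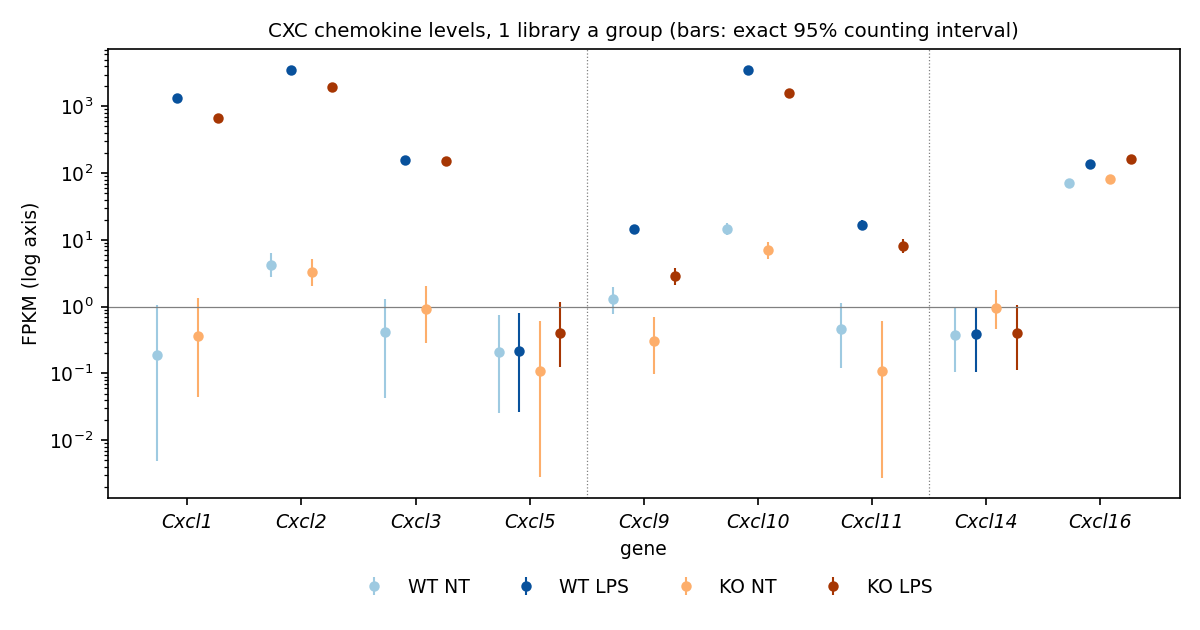
Level of each CXC chemokine gene (x axis) in FPKM (y axis, log scale) in the 4 libraries, 1 point per library, with exact 95% counting intervals as bars. With LPS, Cxcl1, Cxcl2 and Cxcl10 reach 668 to 3504 FPKM, while Cxcl5 and Cxcl14 stay under the line at 1 FPKM in every library.

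At rest the set was carried by Cxcl16. Summed over the 9 genes, the level was 93.1 FPKM in untreated WT cells and 95.8 in untreated KO cells, of which Cxcl16 made up 76.5% and 86.3%. With LPS the sum reached 8639 FPKM in WT and 4493 in KO. Cxcl2 then took 40.6% and 42.9% and Cxcl10 40.2% and 34.9%, while Cxcl16 had 1.59% and 3.66%. In reads, the 9 genes held 0.0201% of all expected counts in untreated and 0.938% in LPS-treated WT cells, against 0.0218% and 0.499% in KO. Summed level was thus nearly the same in both resting libraries and lower in KO than in WT after LPS. In bulk RNA, fewer cells that express a gene and less RNA per cell cannot be told apart.

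All 4 ELR genes lie on chromosome 5 (GRCm38), in a span of 146.6 kb from 90759298 to 90905938. Promoter windows of RefSeq (GRCm38.p6) matched 6 of the 9 members; Cxcl5, Cxcl11 and Cxcl16 were not matched. The 130 bases before the annotated start are shown for the 3 LPS-responsive ELR genes, because each holds a match to the kappaB consensus, the site that NF-kB factors recognise (capitals). All are on the plus strand, at chr5:90891115-90891244 for Cxcl1, chr5:90903769-90903898 for Cxcl2 and chr5:90785971-90786100 for Cxcl3.
Cxcl1: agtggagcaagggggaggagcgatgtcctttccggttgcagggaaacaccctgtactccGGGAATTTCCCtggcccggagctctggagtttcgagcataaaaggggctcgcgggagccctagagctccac
Cxcl2: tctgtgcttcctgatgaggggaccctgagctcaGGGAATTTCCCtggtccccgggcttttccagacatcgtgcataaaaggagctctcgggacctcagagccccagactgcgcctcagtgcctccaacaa
Cxcl3: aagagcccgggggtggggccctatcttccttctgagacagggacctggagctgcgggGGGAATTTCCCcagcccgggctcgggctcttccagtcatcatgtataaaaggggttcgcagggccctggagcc
The capitals are the same GGGAATTTCCC in all 3 genes, a pair of overlapping matches on opposite strands. They begin 71 bases before the start in Cxcl1, 97 in Cxcl2 and 73 in Cxcl3. In all, 3.90% of 32851 RefSeq windows of 250 bases before a start held a kappaB match on either strand. The core of the interferon-stimulated response element, GAAA, any 2 bases and GAAA, was searched on both strands and is in 2.98% of windows. The core of the gamma-activated site, TTCNNNGAA, is in 7.02%. Neither set of letters is in the 250 bases before Cxcl1, Cxcl2 or Cxcl3. A match describes the sequence and shows no binding.

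Cxcl2, known as MIP-2, was at 4.24 FPKM in untreated and 3504 in LPS-treated WT cells, and at 3.28 and 1927 in KO cells. It was the 11th highest of all genes in WT LPS and the 20th in KO LPS. The LPS over NT ratio was 826 in WT (564 to 1265) and 587 in KO (380 to 962). Both LPS libraries were far above both NT libraries, and among the LPS libraries KO was the lower.

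Cxcl1, known as KC, was nearly absent at rest, with 0.19 FPKM in WT and 0.37 in KO cells from 1 and 2 counts. With LPS it reached 1333 FPKM in WT and 668 in KO, from 7088 and 3302 counts. Its ratios, 7015 in WT (1259 to 277118) and 1806 in KO (500.0 to 14922), are imprecise because of the resting counts. On the log2 scale of FPKM + 1, which damps such low values, they were 10.13 and 8.93, the second highest of all genes tested in each genotype.

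Cxcl3, another CXCR2 ligand, was at 0.42 FPKM in untreated and 160 in LPS-treated WT cells, and at 0.92 and 155 in KO cells. The ratios were 381 in WT (105 to 3155) and 168 in KO (71.7 to 519). Unlike Cxcl1 and Cxcl2, it stood at nearly the same level in both LPS libraries. Expected counts of Cxcl2 and Cxcl3 were fractional in every library, but their sum was whole in all 4, at 28 and 21926 counts in WT cells without and with LPS, and 25 and 11547 in KO cells. Some reads were thus divided between these 2 genes, and the deposited tables do not show how many, so the single values are uncertain.

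Cxcl5, known as LIX and best known from epithelial and stromal cells, did not follow the other ELR genes. Its levels were 0.21 FPKM in untreated and 0.22 in LPS-treated WT cells, and 0.11 and 0.41 in KO cells, from 2, 2, 1 and 3.56 counts. These values are at or near the floor of 3 counts, and no difference between libraries was detectable at this depth.

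The interferon-inducible genes lie 1.42 Mb further along chromosome 5, within 42.0 kb from 92321331 to 92363296, on the minus strand. The 250 bases before the start of Cxcl10, at chr5:92348890-92349139, are shown because Cxcl10 is the member of this group that reached the level of Cxcl2. They hold both kinds of match (capitals), a response element core 213 bases before the start and kappaB matches at 159 and 103 bases.
Cxcl10: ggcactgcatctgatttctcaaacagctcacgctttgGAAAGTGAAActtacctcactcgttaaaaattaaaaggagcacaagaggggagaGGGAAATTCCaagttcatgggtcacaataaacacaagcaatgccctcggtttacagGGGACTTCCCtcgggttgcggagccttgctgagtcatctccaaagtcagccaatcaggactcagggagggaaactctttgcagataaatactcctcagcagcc
In the same window of Cxcl9 none of the 3 motifs was found, which says only that these letters are not in this window. Cxcl14 held a response element core and a gamma-activated site core.

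Cxcl10, known as IP-10, was at 14.7 FPKM in untreated and 3472 in LPS-treated WT cells, and at 7.04 and 1568 in KO cells. After LPS its level could not be told from that of Cxcl2 in WT, with intervals of 3426 to 3519 and 3457 to 3552, but was below it in KO. The LPS over NT ratio was 236 in WT (192 to 293) and 223 in KO (166 to 307). In each state the KO library was the lower.

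Cxcl9, known as MIG and classically a gene of interferon gamma, was at 1.29 FPKM in untreated and 14.7 in LPS-treated WT cells, and at 0.31 and 2.87 in KO cells. The ratios of LPS over NT were 11.4 (7.27 to 18.7) and 9.26 (3.68 to 29.9). The level in KO cells with LPS was 2.87 FPKM where untreated WT cells already had 1.29. Cxcl11, known as I-TAC, was at 0.47 FPKM in untreated and 17.0 in LPS-treated WT cells, and at 0.11 and 8.09 in KO cells, with ratios of 36.2 (13.8 to 134) and 73.5 (12.8 to 2947). RefSeq lists Cxcl11 of this C57BL/6J assembly as a transcribed pseudogene, so its RNA does not stand for a working chemokine. Counts of Cxcl9 and Cxcl11 were fractional in every library too, so some of their reads were divided with other genes, and their values are uncertain. The annotated gene Art3 spans Cxcl10 and Cxcl11 on the opposite strand; it had 1 count in KO LPS and was listed in no other library.

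Cxcl16, on chromosome 11 from 70454389 to 70459984, was the member with the highest resting level. It was at 71.2 FPKM in untreated and 138 in LPS-treated WT cells, and at 82.7 and 164 in KO cells. LPS over NT was 1.93 in WT (1.79 to 2.09) and 1.99 in KO (1.85 to 2.14). This was a small change beside those of Cxcl1, Cxcl2, Cxcl3, Cxcl9, Cxcl10 and Cxcl11. Zmynd15, which overlaps Cxcl16 on the other strand, was at 7.39, 11.9, 11.3 and 14.3 FPKM in the same order. Whether counting used strand is not given in the sources used here, so reads of the overlap cannot be assigned. Adam17, a protease that sheds surface proteins, was at 60.8 and 107 FPKM in WT cells without and with LPS, and at 77.2 and 119 in KO. Adam10, a sheddase of Cxcl16, was lower with LPS, at 36.4 and 23.5 in WT and 35.3 and 25.7 in KO. Cxcl14, on chromosome 13, was at 0.38 FPKM in untreated and 0.39 in LPS-treated WT cells, and at 0.96 and 0.41 in KO cells, from 4, 4, 10 and 4 counts, and the intervals of all its ratios included 1.

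Of the 9 members, 6 were at least 2-fold higher with LPS in WT and the same 6 in KO on the scale of FPKM + 1, against 6.41% of 10972 genes and 6.61% of 11069. None was at least 2-fold lower, against 17.2% and 15.1% of genes. The intervals of the 7 measured members lay above 1 in both genotypes, against 13.4% and 14.5%, and of 0 below, against 60.4% and 57.1%. The 6 were Cxcl1, Cxcl2, Cxcl3, Cxcl9, Cxcl10 and Cxcl11. Cxcl1, Cxcl3 and Cxcl11, and in KO also Cxcl9, passed the limit of 1 FPKM in 1 of the 2 libraries through the LPS library alone, so they could only be counted as higher. Cxcl16 was within 2-fold, at log2 0.94 and 0.98 where the median of all genes was -0.46 and -0.42, and with libraries scaled by their median ratio it was at 1.41 in both. Cxcl5 and Cxcl14 did not reach 1 FPKM in any library.

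The order of levels changed with LPS. In WT NT it ran Cxcl16, Cxcl10, Cxcl2 and Cxcl9, and the intervals of Cxcl9 and the 5 genes below it overlapped from one to the next. In WT LPS it ran Cxcl2, Cxcl10, Cxcl1, Cxcl3, Cxcl16, Cxcl11 and Cxcl9, where only Cxcl2 and Cxcl10, Cxcl11 and Cxcl9, and Cxcl14 and Cxcl5 had overlapping intervals. In KO LPS Cxcl16 came before Cxcl3, with overlapping intervals, and the interval of Cxcl9 lay below that of Cxcl11.

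The rule for likeness took the smallest Euclidean distance of log2(FPKM + 1), centred over the 4 libraries, among 9204 genes of at least 50 counts in 1 library. The genes nearest to Cxcl2 were Cxcl1 (distance 0.56), Socs3 (1.06), Il1b (1.15), Il1a (1.45) and Cxcl10 (1.49). Those nearest to Cxcl10 were Il12b (0.77), Il1a (0.85), Tnf (0.91), Acod1 (1.06) and Tnfsf9 (1.20). Cxcl3 was the 11th nearest to Cxcl2, and Cxcl9 the 239th and Cxcl11 the 100th nearest to Cxcl10. A small distance does not mean the same direction between the genotypes. With LPS, Socs3 was at 573 FPKM in WT and 711 in KO, and Tnfsf9 at 458 and 514. The other genes nearest to Cxcl2 or Cxcl10 were lower in KO with LPS. The measure rests on 4 libraries and describes them only.

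**Figure D2:**
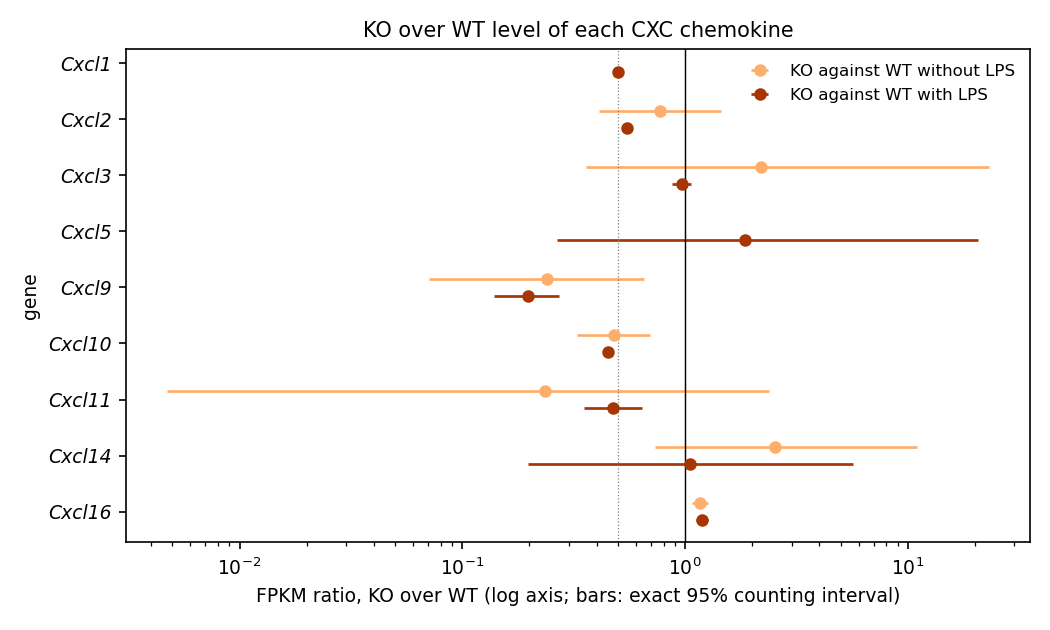
Ratio of FPKM in KO over WT (x axis, log scale) for each gene (y axis), without LPS (light) and with LPS (dark), with exact 95% counting intervals as bars; the dotted line is at a ratio of 0.5. The whole intervals of Cxcl9 and Cxcl10 lie left of 1 in both states, and those of Cxcl1, Cxcl2 and Cxcl11 with LPS. That of Cxcl16 lies right of 1 in both. No ratio is drawn without LPS for Cxcl1 and Cxcl5, which had at most 3 counts in each library.

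Without LPS, the question is whether the genotypes differed before stimulation. Cxcl10 was lower in KO NT, at 7.04 against 14.7 FPKM, a ratio of 0.479 (0.327 to 0.693) from 44 and 92 counts. Cxcl9 was lower too, at 0.31 against 1.29 FPKM, a ratio of 0.240 (0.0708 to 0.655) from 5.2 and 21.37 counts. Cxcl16 was slightly higher, with a ratio of 1.16 (1.07 to 1.27). For Cxcl2 (0.774, 0.409 to 1.44), Cxcl3 (2.19, 0.359 to 23), Cxcl11 (0.234, 0.00475 to 2.37) and Cxcl14 (2.53, 0.729 to 11.0) the interval included 1, and Cxcl1 and Cxcl5 had too few counts for a ratio. Of the 4 members with 1 FPKM or more in either library, the intervals of 2 lay below 1, against 11.6% of 10990 genes tested, and of 1 above, against 14.1%. Cxcl9, 1 of these 2, reached 1 FPKM through the WT library alone, so it could only be counted as lower. None of the 4 was at least 2-fold lower on the scale of FPKM + 1, against 0.883% of genes, or higher, against 0.928%. With a pseudocount of 0.1, 2 were past 2-fold.

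With LPS, the intervals of 5 of the 7 measured members lay below 1, against 9.52% of 10375 genes, and of 1 above, against 21.2%. Cxcl9 was at 0.196 times the WT level (0.139 to 0.271), Cxcl10 at 0.451 (0.440 to 0.463) and Cxcl11 at 0.476 (0.352 to 0.637). Among ELR genes, Cxcl1 was at 0.501 (0.481 to 0.523) and Cxcl2 at 0.550 (0.537 to 0.563), while the interval of Cxcl3 included 1 (0.965, 0.876 to 1.06). Cxcl16 was higher, at 1.19 (1.12 to 1.27). For Cxcl5 and Cxcl14, with 2 to 4 counts, nothing could be told (1.86, 0.267 to 20.6, and 1.05, 0.196 to 5.64).

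Cxcl9 and Cxcl10 were at least 2-fold lower on the scale of FPKM + 1, against 1.12% of 10375 genes, and 0 members were higher, against 1.45%. Cxcl1 and Cxcl11, each at log2 -0.99, were just inside the line, and with median-ratio scaling 4 members were past it. The median gene was at log2 0.08 in this comparison.

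Members of each group differed among themselves in these libraries. Within a library, where no scaling between libraries enters, the level of Cxcl9 per Cxcl10 was 0.00423 in WT LPS and 0.00183 in KO LPS, a KO over WT ratio of 0.433 (0.307 to 0.600). Cxcl11 per Cxcl10 did not differ beyond counting error (1.05, 0.779 to 1.41). Cxcl1 per Cxcl2 was slightly lower in KO (0.912, 0.870 to 0.957), and Cxcl3 per Cxcl2 was higher (1.75, 1.59 to 1.94), a value that rests on how shared reads were divided. Cxcl10 per Cxcl2 was at 0.991 in WT LPS and 0.814 in KO LPS, a ratio of 0.821 (0.794 to 0.849).

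The KO over WT ratios in the 2 states can be set side by side, since they share no library. They need not be independent, because the 2 libraries of a genotype may share mice or culture. For Cxcl10 they were 0.479 without and 0.451 with LPS, and the KO over WT ratio of the LPS responses was 0.943 (0.651 to 1.38). For Cxcl9 it was 0.814 (0.279 to 2.91), for Cxcl2 0.711 (0.381 to 1.34) and for Cxcl16 1.03 (0.925 to 1.14). The intervals for Cxcl1 (0.258, 0.00436 to 4.95), Cxcl3 (0.440, 0.0419 to 2.70), Cxcl11 (2.03, 0.196 to 102) and Cxcl14 (0.416, 0.0484 to 3.60) included 1 as well. A difference between the genotypes in the size of the LPS response was therefore not detectable for any of these 8 genes at this depth. On the log2 scale of FPKM + 1, Cxcl1 and Cxcl9 were past 2-fold, at -1.20 and -1.21, against 1.42% of 11320 genes at least 2-fold lower, and 0 members were higher, against 1.90%. For Cxcl9, with 0.31 FPKM in untreated KO cells, the ratio of 0.814 without the added 1 FPKM lies nearer to 1.

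**Figure D3:**
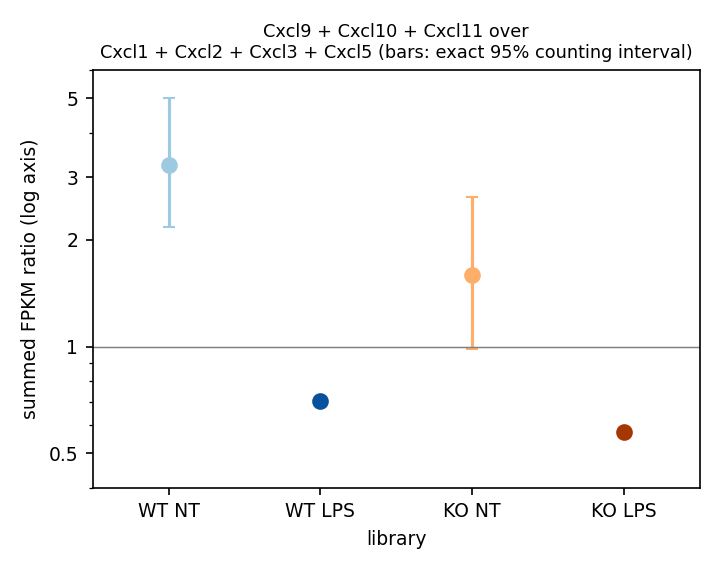
Summed FPKM of Cxcl9, Cxcl10 and Cxcl11 over that of Cxcl1, Cxcl2, Cxcl3 and Cxcl5 (y axis, log scale) in each library (x axis), with exact 95% counting intervals as bars. Both LPS libraries lie below 1 and WT NT above it, and in each state the KO library lies below the WT one.

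The balance of the groups, taken as summed FPKM of Cxcl9, Cxcl10 and Cxcl11 over that of the 4 ELR genes, was 3.25 in untreated (2.17 to 5.00) and 0.701 in LPS-treated WT cells (0.689 to 0.714). In KO cells it was 1.59 (0.984 to 2.63) and 0.574 (0.559 to 0.589). Among these genes, RNA of Cxcl9, Cxcl10 and Cxcl11 was thus the larger part at rest in WT. In both LPS libraries RNA of the 4 ELR members was the larger part. The resting order in WT rests on Cxcl10, at 14.7 FPKM. Cxcl9 and Cxcl11 were at 1.29 and 0.47 FPKM there, and the 4 ELR genes together at 5.06. Ppbp, at 3.59 FPKM in untreated WT and 7.19 in untreated KO cells, is in neither sum. LPS over NT, the balance changed by a ratio of 0.216 in WT (0.140 to 0.323) and 0.360 in KO (0.218 to 0.584). KO over WT, the ratio was 0.490 without LPS (0.255 to 0.946) and 0.819 with LPS (0.793 to 0.845). Cxcl10 made up nearly all of the numerator. Without it the LPS over NT ratios became 0.0182 in WT and 0.0444 in KO, and with the median gene of each group 0.00556 and 0.0409. Without Cxcl2 the ratio in WT was 0.117, and KO over WT without LPS it was 0.265. KO over WT, the balance ratio was 0.258 without LPS and 0.629 with LPS when Cxcl10 was left out, and 0.117 and 0.863 with the median gene. All of these ratios lay below 1, but those that use an untreated library rest on few counts of the ELR genes. The ELR medians of the untreated libraries come from Cxcl1, Cxcl3 and Cxcl5, with at most 5.22 counts each. No interval was computed for the median forms.

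**Figure D4:**
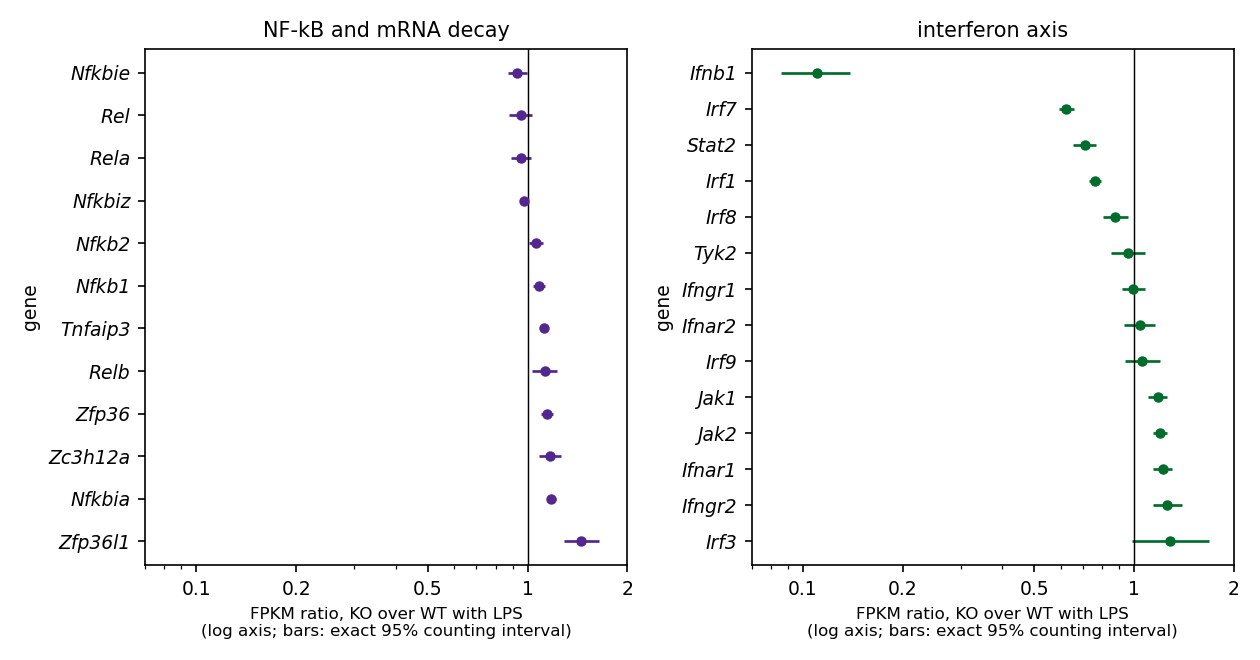
Ratio of FPKM in KO over WT with LPS (x axis, log scale) for genes (y axis) of NF-kB signalling and mRNA decay (left) and 14 of the interferon axis (right), with exact 95% counting intervals as bars. The left panel runs from 0.930 to 1.45, and the right one from 0.110 for Ifnb1 to 1.28 for Irf3.

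Genes that act upstream of the chemokines were taken from 2 lists of regulators. Of 12 genes of NF-kB signalling and cytokine mRNA decay, 11 were at least 2-fold higher with LPS in WT and 11 in KO, against 6.41% and 6.61% of all genes. Nfkbia, the feedback inhibitor of NF-kB, was at 33.6 and 791 FPKM in WT cells without and with LPS and at 40.8 and 932 in KO. Nfkbiz, a nuclear co-activator of secondary response genes, was at 11.4 and 480 FPKM in WT and 17.9 and 467 in KO. Tnfaip3, which encodes the inhibitor A20, was at 12.2 and 675 in WT and 12.9 and 753 in KO. Zfp36l1, which promotes mRNA decay, was the exception, at 41.55 and 28.0 FPKM in WT and 68.8 and 40.6 in KO.

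In KO against WT with LPS, none of the 12 was past 2-fold, where only 1.45% of all genes were higher and 1.12% lower. For 8 the interval was above 1, against 21.2% of all genes, and for 1 below, against 9.52%. The median log2 fold was 0.14 beside 0.08 over all genes. Nfkb1 was at 173 and 187 FPKM, Rela at 115 and 110.0, and Zfp36, which encodes the mRNA decay factor tristetraprolin, at 515 and 587. Zfp36l1 had the highest ratio of the list, 1.45 (1.29 to 1.64), and Nfkbie the lowest, 0.930 (0.871 to 0.992). Without LPS none was past 2-fold either, where only 0.928% of all genes were higher and 0.883% lower. In that state 6 intervals lay above 1, against 14.1% of all genes, and 0 below, against 11.6%.

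Among 15 genes of the interferon axis, Ifnb1 differed most between the genotypes with LPS. Ifnb1, which encodes interferon beta, was listed in neither NT library and was at 177 FPKM in WT cells with LPS and 19.45 in KO cells with LPS (ratio 0.110, 0.0857 to 0.139). It was the only one of the 15 past 2-fold in KO against WT with LPS, where 1.12% of all genes were lower and 1.45% higher. The intervals of 6 genes lay below 1, against 9.52% of all genes, among them Ifnb1, Irf7 (0.625, 0.593 to 0.659), Stat2 (0.709, 0.654 to 0.767), Irf1 (0.763, 0.733 to 0.795) and Irf8 (0.878, 0.805 to 0.957). Those of 4 lay above 1, against 21.2% of all genes, namely the receptor and kinase genes Ifnar1, Ifngr2, Jak1 and Jak2, at 1.18 to 1.26. The median of the list was -0.01, against 0.08 over all genes.

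Without LPS, 14 of the 15 were measured and none was past 2-fold, where only 0.928% of all genes were higher and 0.883% lower. The intervals of 4 lay below 1, against 11.6% of all genes, among them Irf7 (0.705, 0.673 to 0.740), Stat2 (0.684, 0.642 to 0.728) and Tyk2 (0.883, 0.786 to 0.992). Those of Ifngr1 (1.25, 1.12 to 1.39) and Irf8 (1.11, 1.02 to 1.20) lay above 1, against 14.1% of all genes. Cxcl10 and Cxcl9 were lower in KO in this state as well. Ifnb1 was listed in neither NT library, and Ifng, which encodes interferon gamma, in no library. A gene that is not listed may still be expressed below what this depth detects. The part of these genes in the chemokine differences was not tested.

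Receptors for these ligands were sparse. Cxcr2 was at 2.56 to 3.39 FPKM and Cxcr3 at 2.31 to 3.20 over the 4 libraries, Cxcr6 at 0.19 to 0.30, and Ackr1, a decoy receptor, was listed nowhere. Of 8 receptors only 3, Cxcr2, Cxcr3 and Cxcr4, were measured in each comparison. Cxcr4, the receptor of Cxcl12, was the only one of these past 2-fold with LPS. It was lower with LPS, at 48.1 and 9.48 FPKM in WT (ratio 0.197, 0.157 to 0.245) and 53.3 and 10.1 in KO (0.190, 0.151 to 0.236). Of all genes, 17.2% and 15.1% were at least 2-fold lower with LPS. None of the 3 was past 2-fold between the genotypes. Of all genes, 0.928% were higher and 0.883% lower without LPS, and 1.45% and 1.12% with LPS. Of 6 other CXC ligand genes, Pf4, platelet factor 4, was at 50.9 to 66.2 FPKM and Ppbp at 3.45 to 7.19, Cxcl15 was at 0 to 0.17, and Cxcl13 and Cxcl17 were listed nowhere. Cxcl12 was at 0.21 FPKM in untreated and 1.02 in LPS-treated WT cells (ratio 4.86, 1.31 to 26.8), and at 0.47 and 0.12 in KO cells, from 2 to 12 counts. KO over WT with LPS, its ratio was 0.118 (0.0128 to 0.528). On the scale of FPKM + 1, none of the 3 ligands measured in WT and the 2 measured in KO was past 2-fold with LPS. Of all genes, 6.41% and 6.61% were higher and 17.2% and 15.1% lower.

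Markers of other cells that could contribute chemokine RNA were summed. The 10 neutrophil genes summed to 380 FPKM in untreated WT and 648 in untreated KO cells, and to 412 and 562 with LPS. S100a8 and S100a9 made up most of this. Without LPS the KO over WT intervals lay above 1 for 7 of the 9 measured, against 14.1% of all genes. With LPS they did for 5 of 10, against 21.2%. Those of 0 lay below 1, against 11.6% and 9.52%. Ly6g was lower in KO, at 0.23 and 0 FPKM in WT and KO without LPS and 1.18 and 0.69 with LPS, from at most 6 counts. Mpo was lower in KO without LPS only, with an interval that included 1 (0.840, 0.569 to 1.23). The 8 fibroblast and stromal genes summed to 6.81 FPKM in untreated WT and 3.73 in untreated KO cells, and to 6.52 and 2.37 with LPS. Only Col1a1, Col1a2 and Col3a1 reached 1 FPKM, with LPS through the WT library alone. Their KO over WT intervals lay below 1 in both states, against 11.6% and 9.52% of all genes. Dcn, Lum, Pdgfra, Thy1 and Postn had at most 5 counts per library. Of these, Dcn was higher in KO without LPS (0.48 against 0.29 FPKM), with an interval that included 1. The 7 T and NK cell genes summed to 0.14 to 0.91 FPKM with Cd3e, Cd3g, Ncr1 and Ifng at 0 in all libraries, 4 B cell genes to 0.76 to 3.71 and 6 dendritic cell genes to 3.95 to 6.75. The 4 endothelial genes, with Tek at 0, summed to 13.8 FPKM in untreated WT and 8.17 in untreated KO cells, and to 10.8 and 6.72 with LPS, nearly all of it Kdr. Pecam1 and Cdh5, at 0.12 to 0.59 FPKM, did not follow Kdr. Without and with LPS, their KO over WT ratios were 1.09 and 2.08 for Pecam1 and 1.35 and 0.686 for Cdh5. All of these intervals included 1. The 12 macrophage genes summed to 5987 FPKM in untreated WT and 7050 in untreated KO cells, and to 5178 and 5843 with LPS. Of these 12, the intervals of KO over WT without LPS lay above 1 for 9, against 14.1% of all genes. Those of 2, Cd68 and Msr1 (0.787, 0.731 to 0.847), lay below, against 11.6%. With LPS the intervals lay above 1 for 7, against 21.2% of all genes. That of 1, Fcgr1 (0.815, 0.753 to 0.881), lay below, against 9.52%. Most of these genes had high counts, so small differences also excluded 1, as for Cd68 without LPS (0.957, 0.930 to 0.985). Summed neutrophil and macrophage markers were thus higher, and summed stromal markers and Kdr lower, in both KO libraries. Their part in the chemokine differences was not tested.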

How the data were processed

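Total RNA of 4 macrophage libraries, 1 per group, was sequenced by HiSeq, as the labels' protocols state. Bowtie, RSEM and the genome mm10 are named in the submitters' processing notes; for versions, annotation, strand setting and read filters, nothing is given in the sources used here. The deposited tables give an expected count, the authors' RSEM estimate of a gene's reads, of which 78.7% to 79.4% were whole per library, and an FPKM, the authors' length-scaled level. Gene length, per the file headers, is in bases. A gene not listed in a table was set to 0.

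Of 15935 gene identifiers, 15897 matched RefSeq symbols (GRCm38.p6, the assembly of mm10), and strands came from GENCODE M21. Log2 folds used FPKM + 1 and took genes that reached 1 FPKM in 1 or more of the libraries compared (for the difference of responses, in any), and calls were made at 2-fold. Ratios of FPKM carry exact 95% intervals from expected counts rounded to whole numbers (Clopper-Pearson for 2 libraries, conditional for ratios of ratios), computed with SciPy 1.17.1. Their width is the precision that depth gives. No ratio was given where both counts were at most 3. No test was run, since each group is 1 library. The computations were tested on simulated whole counts of well-covered genes with small folds. Low resting counts, fractional counts and folds of the size seen here with LPS were not simulated.

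Named genes are all members, Ezh2, list members past 2-fold or otherwise the 2 furthest from 0 (at most 4 per list and comparison), and the 5 genes most like Cxcl2 and Cxcl10. Further list genes were named after their values were seen. 1 gene of the interferon list is counted but not reported here by name. The members and lists were chosen with earlier results of these data known. Alternatives were pseudocounts of 0.1 and 5, no filter or one of 5 FPKM, median-ratio scaling, CPM, 1.5-fold and 3-fold lines, 3 counts for 0, and other forms of the balance.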

Additional observations from a re-analysis of the deposited data

Results flagged for a closer look

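Some members had KO over WT log2 differences of opposite sign in the 2 states, on the scale of FPKM + 1. Cxcl1 was at 0.20 without LPS and -0.99 with LPS, Cxcl3 at 0.44 and -0.05, and Cxcl5 at -0.12 and 0.21. Without LPS these rest on at most 5.22 counts per library. For Cxcl14 the LPS difference was 0.01 in WT and -0.48 in KO, from 4 to 10 counts. With 1 library a group the differences between states or genotypes were not tested.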

How the results depend on the processing

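No paired analysis was possible because each group has 1 library and the labels give no replicate numbers; for the same reason no library could be left out. Of 61 recomputed member counts and balance ratios, 45 stayed within 1.5 times the reported count or within the reported ratio's 95% counting interval, and 16 did not. No balance ratio crossed 1. The count of members at least 2-fold apart in KO against WT without LPS was 0, and became 2 with a pseudocount of 0.1, 1 with CPM and 2 at a 1.5-fold line. With LPS it was 2, and became 3 with a pseudocount of 0.1 and with CPM, 4 with median-ratio scaling, 5 at 1.5-fold and 1 at 3-fold. For the LPS response of KO against that of WT it was 2, and became 1 with CPM and 0 at 3-fold. The counts for LPS, 6 in each genotype, ran from 6 to 7 in WT and from 5 to 7 in KO. The balance ratio for LPS in WT was 0.0182 without Cxcl10, 0.117 without Cxcl2 and 0.00556 with the median of each group. For LPS in KO it was 0.0444 without Cxcl10 and 0.0409 with the median, and for KO against WT 0.629 with LPS without Cxcl10, and with the median 0.117 without LPS and 0.863 with LPS. The wide interval of the KO against WT ratio without LPS, 0.490, also takes in 0.258 without Cxcl10 and 0.265 without Cxcl2. Among 100 recomputed log2 folds of single members 20 moved beyond their counting interval, and none of the called folds changed sign. Depth limits the resting values most: Cxcl1, Cxcl3, Cxcl5, Cxcl11 and Cxcl14 had at most 10 counts in each NT library.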
